A study of Mus musculus with 6 samples.

Results

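The 10 genes described here encode the main heat shock proteins and chaperones of the cytosol and the mitochondrial matrix, and were taken as a fixed list of names: Hspa1a, Hspa1b, Hspa8, Hsp90aa1, Hsp90ab1, Hspb1, Dnajb1, Hsph1, Hspd1 and Hspe1. All 10 were found among the 25102 genes of the table. Poly(A) RNA was measured in 6 livers of male C57BL/6J mice, 3 controls and 3 that had received diethylnitrosamine and carbon tetrachloride (DEN+CCl4), a chemical model of hepatocellular carcinoma. Per the labels, mice were 2 weeks old when assigned to the groups, the treated animals then got 1 intraperitoneal dose of DEN (1 mg/kg), and CCl4 (0.2 mL/kg) was started roughly 6 weeks afterwards and given 2 times weekly over at most 14 weeks. The labels name no genetic change in either group and no injection of the controls, and they do not say whether tumour or surrounding tissue was taken. The libraries carry only a replicate number, so p-values cover only the spread among these libraries, which may be technical, and as bulk tissue they cannot tell fewer cells of a type from less RNA per cell.

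Chaperones bind unfolded or newly made proteins and keep them from aggregating. HSP70 proteins work in cycles of ATP hydrolysis that J-domain proteins such as Dnajb1 start and nucleotide exchange factors such as Hsph1 reset, and clients can pass on to HSP90 or, inside mitochondria, to the barrel formed by Hspd1 and its lid Hspe1. Some members (Hspa8, Hsp90ab1) are made at high levels in unstressed cells, while others (Hspa1a, Hspa1b, Hsp90aa1, Dnajb1, Hsph1, Hspb1) are known for their induction by the transcription factor HSF1, which binds arrays of inverted GAA units called heat shock elements.

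Promoter letters are shown first because the inducible HSP70 genes and the chaperonin pair are each arranged around shared sequence. RefSeq promoter windows on GRCm38.p6 were found for 7 of the 10 members (Hspa1a, Hspa1b, Hspb1, Dnajb1, Hsph1, Hspd1 and Hspe1). The 250 bases before each start were searched on both strands for 2 inverted units with 2 bases between them, as GAANNTTC or TTCNNGAA, each of which is its own reverse complement. Either motif occurred in 12.8% of 32851 such windows of all genes. Of the 7 members, 6 had a match. Hspa1a and Hspa1b, 2 single-exon genes on the minus strand of chromosome 17 with 9951 bases between them, are given 5′ to 3′ from chr17:34972157-34972406 and chr17:34959239-34959488, with the match in capitals:
Hspa1a: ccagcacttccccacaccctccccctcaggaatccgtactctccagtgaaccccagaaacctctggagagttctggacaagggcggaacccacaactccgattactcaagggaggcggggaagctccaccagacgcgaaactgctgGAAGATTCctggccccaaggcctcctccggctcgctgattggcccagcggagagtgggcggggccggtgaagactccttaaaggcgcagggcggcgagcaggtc
Hspa1b: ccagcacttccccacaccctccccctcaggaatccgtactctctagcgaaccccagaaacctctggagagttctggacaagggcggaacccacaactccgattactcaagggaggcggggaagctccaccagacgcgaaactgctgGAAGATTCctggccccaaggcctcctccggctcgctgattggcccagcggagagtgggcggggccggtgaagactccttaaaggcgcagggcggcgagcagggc
These windows were identical at 247 of 250 bases (98.8%). Counted from 1 at the 5′ end of the window, the differences from Hspa1a to Hspa1b were C44T, T47C and T249G. The matched letters lay 97 to 104 bases before both starts. A match is a description of the letters, not evidence of binding.

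Hsph1 (minus strand, chr5:149636337-149636586) had 1 match, 26 to 33 bases before the first of its 2 listed starts:
Hsph1: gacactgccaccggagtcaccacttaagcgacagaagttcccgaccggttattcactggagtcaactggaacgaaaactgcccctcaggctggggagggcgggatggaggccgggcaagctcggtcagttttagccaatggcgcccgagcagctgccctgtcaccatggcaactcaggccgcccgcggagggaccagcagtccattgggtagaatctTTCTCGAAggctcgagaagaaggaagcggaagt
Hspd1 and Hspe1 are transcribed away from each other on chromosome 1. The 215 bases between the Hspe1 start and the Hspd1 start to its left (chr1:55087933-55088147, plus strand) are shown because both genes share them:
Hspd1-Hspe1: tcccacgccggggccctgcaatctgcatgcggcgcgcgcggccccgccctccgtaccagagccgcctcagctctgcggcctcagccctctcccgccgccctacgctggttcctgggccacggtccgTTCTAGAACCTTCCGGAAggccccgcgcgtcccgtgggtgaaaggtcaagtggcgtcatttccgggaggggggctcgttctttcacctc
The capitals mark an unbroken run of 18 bases with 4 alternating units, made of 3 overlapping matches, 71 bases from the Hspe1 start and 126 bases from that Hspd1 start. The other listed Hspd1 start (chr1:55088243) lies to the right of the Hspe1 start, so the run is downstream of it. The window before that other start had 0 matches. A run of 4 such units at the same spacing and starting with TTC, as here, was found in 4 of the 32851 windows (0.0122%), 2 of which are those of Hspd1 and Hspe1. Runs of 4 units starting with GAA were not counted. A run of 3 units starting with GAA on either strand was found in 0.466% of windows. Hspb1 had 2 matches, at 90 to 97 and 110 to 117 bases before its start, and the 2 Dnajb1 windows had none. The lack of a match says only that these letters are not in those windows.

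Expression is given as FPKM, fragments scaled to gene length and to the library's total, which allows levels of different genes to be compared, and values are listed in the order of replicates 1, 2 and 3. DEN+CCl4 replicate 3 stood apart before any comparison. Mitochondrial transcripts and 7 nuclear copies of them held 85.0% of its FPKM against 38.1% to 62.1% in the other 5 libraries, and its median tested gene was at 1.19 FPKM against 3.43 to 4.46. The levels of the 10 genes are therefore also described after median-ratio scaling, a division by the median, over genes, of a library's ratio to the geometric mean of the 6. The divisor was 0.356 for that library and 1.16 to 1.37 for the others. Differences were tested with limma on log2(FPKM + 1) over the 8528 genes whose mean reached 1 FPKM, at a Benjamini-Hochberg adjusted p of 0.05. As deposited, 71 genes were higher and 55 lower (1.48% of those tested), and without DEN+CCl4 replicate 3 there were 0 and 0, with 522 and 139 at an unadjusted p under 0.05. After scaling 0 passed (0.0%), while an unadjusted p under 0.05 was reached by 468 genes with higher and 446 with lower values.

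Of the 10 members, 9 entered the test and 0 passed it, with either scale (limma, smallest adjusted p = 0.379 as deposited and 0.382 scaled). An unadjusted p under 0.05 was reached by 2 members as deposited (Hspa1b and Hsp90aa1) and by 7.6% of all tested genes, 2.53% in the upward direction. After scaling it was reached by 3 members (with Dnajb1) and by 10.7% of tested genes, 5.49% upward. With DEN+CCl4 replicate 1 left out, the scaled fit called 7.69% of tested genes (3.45% higher) and Hsp90aa1 among them (log2 fold change 1.34, limma adjusted p = 0.0436). Hspa1b was also under the threshold there (1.43, limma adjusted p = 0.00987), but it entered the test only through its treated livers, so that p is no support. After scaling, the 3 treated livers lay above all 3 controls for 5 of the 10 members (Hspa1a, Hspa1b, Hsp90aa1, Hsph1 and Dnajb1), and for 0 members did they lie below. Among all tested genes 7.63% were separated upward in this way and 6.52% downward (14.2% in all), and upward 7.68% of the 24933 genes above 0 in any library. As deposited, 2 members (Hspa1a and Hspa1b) were separated upward, against 3.01% of tested genes and 3.83% of genes above 0, and 0 downward, against 5.35% (8.36% of tested genes in either direction). Library by library, 6, 6 and 2 members in DEN+CCl4 replicates 1, 2 and 3 exceeded all controls as deposited, where 25.8%, 45.1% and 5.66% of tested genes did. Scaled, 5, 6 and 7 members did, beside 18.2%, 34.1% and 37.3% of tested genes. The median log2 fold change of the 9 tested members was 0.61 after scaling and 0.19 as deposited, beside 0.01 and -0.27 for all tested genes. Hspa1b (mean 1.00 FPKM) and Hsph1 (1.19), both under 1 FPKM in every control, passed the filter only through the treated livers, and Hspa1a, at 0.573, did not pass. The median is thus not that of all members and is given as a description.

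**Figure D1:**
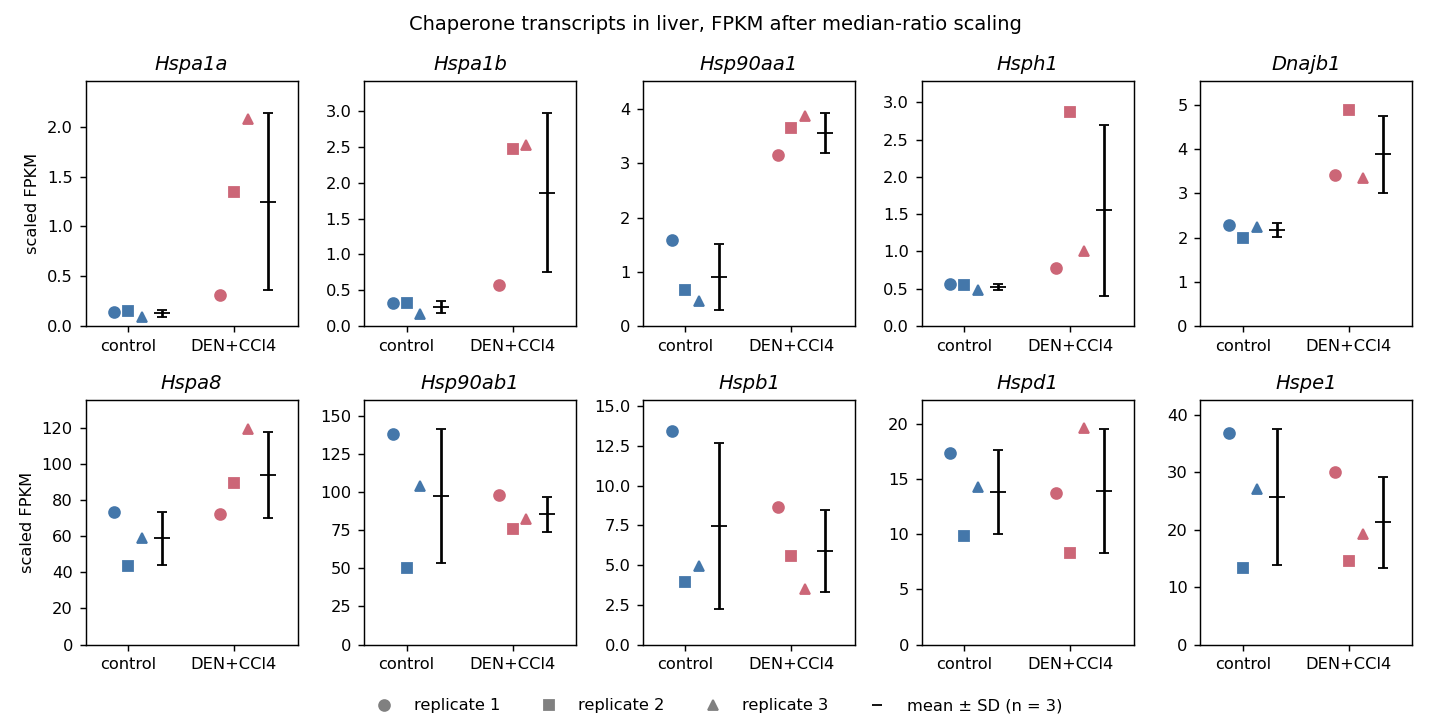
Scaled FPKM of each chaperone gene (y axis, from 0, a separate range per gene) in 3 control (blue) and 3 DEN+CCl4 livers (red); symbols mark the replicate number and black bars the mean ± SD. In the upper row every treated liver is above every control, as for Hsp90aa1 at 3.15 to 3.87 against 0.461 to 1.59, while in the lower row the groups overlap.

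In control liver the members spanned nearly the whole range of expressed genes. Hsp90ab1 was highest at 116 ± 52.7 FPKM (SD, n = 3), above 96.5% of tested genes. Hspa8 followed at 70.1 ± 17.9, Hspe1 at 30.8 ± 14.1, Hspd1 at 16.5 ± 4.63 and Hspb1 at 8.84 ± 6.00 FPKM. Below them came Dnajb1 at 2.60 ± 0.268, Hsp90aa1 at 1.07 ± 0.693, Hsph1 at 0.627 ± 0.0252, Hspa1b at 0.320 ± 0.0866 and Hspa1a at 0.150 ± 0.0361 FPKM. Neighbours in this order overlapped in their control values for Hsp90ab1 and Hspa8, Hspe1 and Hspd1, Hspd1 and Hspb1, and Hsp90aa1 and Hsph1. The other 5 neighbouring pairs did not overlap. All 10 together made up 0.0524% to 0.0769% of the FPKM outside mitochondrial genes in controls and 0.0573% to 0.101% in DEN+CCl4 liver.

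Hspa1a and Hspa1b encode the stress-inducible cytosolic HSP70, and both had low values in control liver. Hspa1a (ENSMUSG00000091971, chromosome 17, 34969190 to 34972156, GRCm38) gave 0.16, 0.18 and 0.11 FPKM in the 3 controls, and the treated livers gave 0.40, 1.85 and 0.74 FPKM. Every treated liver was above every control, by the smallest margin in replicate 1. Scaled, the treated values were 0.313, 1.35 and 2.08 against 0.0874 to 0.156, or 2.47, 10.6 and 16.4 times the control mean. Its log2 fold change was 0.73 as deposited and 0.91 scaled, on a scale that understates changes at such levels, and it was not tested. An overlapping gene of the opposite strand, Gm20481, is annotated there, and the use of strand in the counting is not given in the sources used here.

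Hspa1b (ENSMUSG00000090877, chromosome 17, 34956436 to 34959238) gave 0.37, 0.37 and 0.22 FPKM in the 3 controls, and the treated livers gave 0.74, 3.40 and 0.90 FPKM. Replicate 2 was the highest as deposited, and after scaling replicates 2 and 3 were alike at 2.48 and 2.53. Fitted with limma, it had a log2 fold change of 0.89 (SE 0.37, limma adjusted p = 0.379, unadjusted p = 0.0180) and, scaled, 1.08 (SE 0.33, limma adjusted p = 0.453). Of the 50-base words of the Hspa1b transcript 62.3% also occur in Hspa1a, so reads can be assigned to either gene and the single values are uncertain. The sum of both was 0.53, 0.55 and 0.33 FPKM across controls, whereas treated livers reached 1.14, 5.25 and 1.64 FPKM, again without overlap.

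Hspa8, the constitutive HSC70 of the cytosol (chromosome 9, 40800984 to 40810087), gave 85.5, 50.4 and 74.5 FPKM in the 3 controls, and the treated livers gave 92.2, 122 and 42.5 FPKM. The groups overlapped on both scales, and the position of replicate 3 turned from lowest as deposited to highest when scaled (72.2, 89.1 and 119 against 43.6 to 73.3). On the log2 scale the difference was 0.19 (SE 1.00, limma adjusted p = 0.996) and, scaled, 0.67 (SE 0.42, limma adjusted p = 0.593). It was -0.03 without control replicate 2 and -0.13 without DEN+CCl4 replicate 2, both as deposited. Of its 50-base words 51.4% occur in other genes' transcripts, 45.3% in Gm15459 (0 to 0.22 FPKM), so its level and the ratios to it are uncertain.

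HSP90 is a dimeric chaperone of kinases and steroid receptors, with an inducible alpha gene and a constitutive beta gene. Hsp90aa1, the alpha gene (chromosome 12, 110690605 to 110702728), gave 1.86, 0.76 and 0.58 FPKM in the 3 controls, and the treated livers gave 4.02, 5.00 and 1.38 FPKM. As deposited, DEN+CCl4 replicate 3 lay within the control range. After scaling the treated livers were close together at 3.15, 3.65 and 3.87, all above the controls at 0.461 to 1.59, and DEN+CCl4 replicate 1 stood with the other 2 here, unlike for Hspa1a and Hspa1b. The log2 fold change was 1.06 (SE 0.47, limma adjusted p = 0.480) and, scaled, 1.30 (SE 0.27, limma adjusted p = 0.382, unadjusted p = 0.00143). Leaving out DEN+CCl4 replicate 3, it was 1.46 as deposited (limma adjusted p = 0.382). The level of Hsp90aa1 is uncertain, because 58.5% of its 50-base words occur in transcripts of other genes, 51.5% in the pseudogene Gm12346 alone, which itself read 0.05 to 0.39 FPKM.

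Hsp90ab1, the beta gene (chromosome 17, 45567775 to 45573271), gave 161, 58.1 and 131 FPKM in the 3 controls, and the treated livers gave 125, 104 and 29.3 FPKM. DEN+CCl4 replicate 3 was lowest as deposited, and scaled values of 97.8, 75.8 and 82.3 lay inside the control range of 50.2 to 138. Fitted with limma, it had a log2 fold change of -0.55 (SE 1.02, limma adjusted p = 0.996) and, scaled, -0.08 (SE 0.49, limma adjusted p = 0.967), and its sign turned to 0.09 without DEN+CCl4 replicate 3. Only 4.49% of its words occur in other transcripts.

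Dnajb1, the J-domain partner that delivers clients to HSP70 (chromosome 8, 83608193 to 83612653), gave 2.67, 2.30 and 2.82 FPKM in the 3 controls, and the treated livers gave 4.35, 6.71 and 1.19 FPKM. The controls were tightly grouped, and DEN+CCl4 replicates 1 and 2 were above them and replicate 3 below. Scaled, all 3 treated livers were above (3.41, 4.89 and 3.34 against 1.99 to 2.29). On the log2 scale the difference was 0.32 (SE 0.54, limma adjusted p = 0.996) and, scaled, 0.61 (SE 0.23, limma adjusted p = 0.453, unadjusted p = 0.0313). Without DEN+CCl4 replicate 2 it was -0.07 as deposited, and without replicate 3 it was 0.84 (limma adjusted p = 0.608).

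Hsph1, the HSP110 exchange factor of HSP70 (chromosome 5, 149614287 to 149636376), gave 0.65, 0.63 and 0.60 FPKM in the 3 controls, and the treated livers gave 0.99, 3.93 and 0.36 FPKM. DEN+CCl4 replicate 2 stood far above the rest, and replicate 3 was below the controls as deposited but above them scaled (0.776, 2.86 and 1.01 against 0.477 to 0.557). The log2 fold change was 0.54 (SE 0.39, limma adjusted p = 0.946) and, scaled, 0.65 (SE 0.31, limma adjusted p = 0.488). Without DEN+CCl4 replicate 2 these became 0.02 and 0.30. No 50-base word of Hsph1 occurred in another gene.

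**Figure D2:**
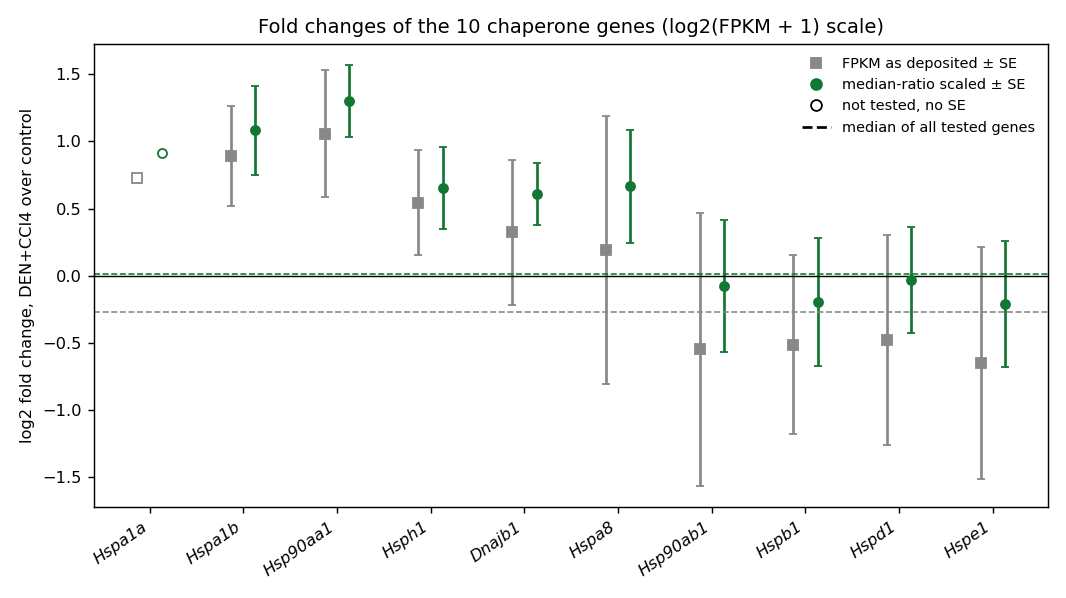
Log2 fold change of each chaperone gene (y axis, DEN+CCl4 over control, from log2(FPKM + 1)) as deposited (grey squares) and after median-ratio scaling (green circles), with limma's SE; open symbols were not tested, and dashed lines give the median of all tested genes. Hspa1a, Hspa1b, Hspa8, Hsp90aa1, Dnajb1 and Hsph1 have positive values on both scales and the other 4 genes negative ones, with none past the adjusted threshold.

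Hspb1, a small heat shock protein that holds unfolded proteins without ATP (chromosome 5, 135887919 to 135889563), gave 15.7, 4.59 and 6.23 FPKM in the 3 controls, and the treated livers gave 11.1, 7.61 and 1.24 FPKM. Scaled, these were 13.5, 3.97 and 4.95 against 8.66, 5.55 and 3.48. The groups overlapped on both scales, and control replicate 1 was the highest of all. Fitted with limma, it had a log2 fold change of -0.51 (SE 0.67, limma adjusted p = 0.996) and, scaled, -0.20 (SE 0.48, limma adjusted p = 0.901), and it was 0.27 scaled without control replicate 1. Of its words 51.6% occur in the copy Hsp25-ps1, which gave 7.39, 2.13 and 2.78 FPKM in the 3 controls, and the treated livers gave 3.93, 2.07 and 0 FPKM.

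The mitochondrial chaperonin genes overlapped between the groups on both scales. Hspd1, HSP60 (chromosome 1, 55077835 to 55088243), gave 20.3, 11.4 and 18.0 FPKM in the 3 controls, and the treated livers gave 17.6, 11.4 and 6.99 FPKM. Hspe1, HSP10 (chromosome 1, 55088132 to 55091307), gave 43.0, 15.4 and 34.1 FPKM in the 3 controls, and the treated livers gave 38.4, 20.0 and 6.86 FPKM. For both, the only treated library outside the control range as deposited was replicate 3, and control replicate 2 was the lowest control. Scaled, Hspd1 was at 17.4, 9.81 and 14.3 in controls against 13.8, 8.33 and 19.6, and Hspe1 at 36.9, 13.3 and 27.1 against 30.1, 14.6 and 19.3. Scaled log2 fold changes were -0.03 for Hspd1 (SE 0.40, limma adjusted p = 0.980) and -0.21 for Hspe1 (SE 0.47, limma adjusted p = 0.891). As deposited they were -0.48 and -0.65 (limma adjusted p = 0.996 for each). The annotated bodies of these divergent genes overlap at their 5′ ends, and 44.8% of the words of Hspd1 occur elsewhere, mostly in Hspd1-ps3 (0.31 to 0.49 FPKM).

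Ratios within a library, taken with 0.01 FPKM added to each level, hardly depend on its scale, and 4 of them were compared with exact two-sided permutation tests, whose smallest possible p with 3 against 3 libraries is 0.1. Inducible HSP70 (Hspa1a plus Hspa1b) made up 0.616%, 1.08% and 0.441% of its sum with Hspa8 in controls and 1.22%, 4.12% and 3.71% in the treated livers. The log2 ratio to Hspa8 went from -7.19 ± 0.65 to -5.18 ± 0.99 (SD, n = 3), a difference of 2.01 or 4.02-fold (exact permutation p = 0.1, adjusted 0.133 over 4 ratios). The groups did not overlap, though DEN+CCl4 replicate 1 at -6.33 was close to control replicate 2 at -6.49. With 1 FPKM added instead, the difference was 0.97 and the groups overlapped (exact permutation p = 0.2). Hsp90aa1 held 1.14%, 1.29% and 0.442% of summed cytosolic HSP90 transcripts in controls and 3.12%, 4.59% and 4.49% in treated livers. Its log2 ratio to Hsp90ab1 differed by 2.24 or 4.73-fold, from -6.82 ± 0.85 to -4.58 ± 0.33 (exact permutation p = 0.1, adjusted 0.133). The inducible part of either pair was above all controls in 3 of 3 treated livers, at the lowest p this design allows and not past 0.05.

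Chaperones of the mitochondrion and the cytosol were compared in the same way. Hspd1 stood at 0.237, 0.225 and 0.242 times the level of Hspa8 in controls and at 0.191, 0.0934 and 0.164 times in treated livers. The log2 ratio was -2.09 ± 0.05 and -2.80 ± 0.54 (SD, n = 3), a difference of -0.71 (exact permutation p = 0.1, adjusted 0.133), and all 3 treated livers were below the narrow control range. Without DEN+CCl4 replicate 2 the difference was -0.41. Hspd1 and Hspe1, which share a promoter region, kept overlapping ratios of 0.471, 0.737 and 0.527 in controls and 0.458, 0.571 and 1.02 in treated livers (difference in log2 ratio 0.18, exact permutation p = 0.7). The value of 1.02 came from DEN+CCl4 replicate 3, and without it the difference was -0.15.

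**Figure D3:**
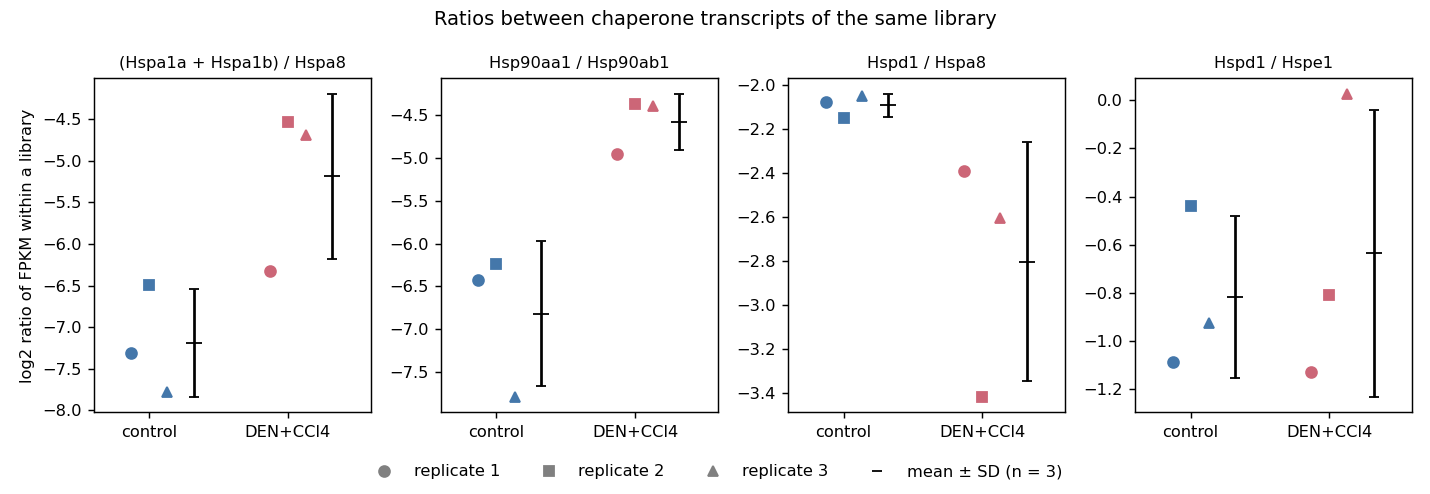
Log2 ratio of FPKM between chaperone genes of the same library (y axis, a separate range per panel) in 3 control (blue) and 3 DEN+CCl4 livers (red), with mean ± SD in black. The groups are apart in the first 3 panels, with Hsp90aa1 to Hsp90ab1 at -4.95 to -4.38 in treated livers and -7.79 to -6.24 in controls, and overlap for Hspd1 to Hspe1.

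The wider chaperone network gave 0 called genes in its 9 lists (limma, as deposited, where 1.48% of tested genes were called). The lists share genes, so their medians are not independent. Bag3 and Dnaja1 are both heat-inducible genes and HSP70 partners, Stip1 and Fkbp4 both heat-inducible genes and HSP90 partners. The member Hspb1 is also in the list of small heat shock proteins. Means ± SD of the network's genes are of deposited values, which are low for most genes in DEN+CCl4 replicate 3, so the scaled log2 fold change is given with them. Among 5 tested heat shock factor genes and binding proteins the median scaled log2 fold change was -0.09. Hsbp1, a small protein that binds HSF1, was at 19.7 ± 5.34 FPKM in controls and 14.0 ± 7.91 in treated livers (SD, n = 3; scaled -0.18), and Hsf4, a heat shock factor, at 11.2 ± 3.15 and 14.2 ± 11.3 (scaled 0.49). Of 13 tested further genes known to be heat-inducible, 7 had a positive scaled log2 fold change, with a median of 0.15 beside 0.01 for all tested genes. Ubb, a polyubiquitin gene, was at 302 ± 151 FPKM in controls and 167 ± 101 in treated livers (scaled -0.40). In 3 of the 13 the treated livers lay above all controls after scaling, where 7.63% of all tested genes did. Chosen after their values were seen, these were Serpinh1, the collagen chaperone HSP47 (scaled log2 fold change 1.26, limma adjusted p = 0.422), Bag3, an exchange factor of HSP70 (0.75), and the small heat shock protein gene Cryab (0.33).

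The 18 tested partners of HSP70 had a median scaled log2 fold change of 0.13, with the ubiquitin ligase Stub1 at 40.4 ± 3.64 FPKM in controls and 37.9 ± 22.7 in treated livers (scaled 0.12), and the exchange factor Bag1 at 20.8 ± 6.00 and 17.2 ± 3.77 (scaled 0.22). Both were lower in the deposited mean and higher in the scaled fit, and DEN+CCl4 replicate 3 was the highest library for scaled Bag1. The 16 tested partners of HSP90 had a median of -0.08, with the immunophilin Fkbp4 at 26.6 ± 8.39 and 22.7 ± 18.0 FPKM (scaled -0.26), and Nudc at 16.3 ± 4.14 and 12.7 ± 7.07 (scaled -0.05). For the 12 tested subunits of the cytosolic chaperonin TRiC and of prefoldin, which fold actin and tubulin, the median was 0.00. Pfdn5 was at 49.8 ± 9.98 and 35.9 ± 21.2 FPKM (scaled -0.18) and Pfdn6 at 21.4 ± 4.05 and 18.6 ± 12.7 (scaled -0.11).

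Mitochondrial chaperones and proteases had a median scaled log2 fold change of -0.31 over 16 tested genes, 12 of them negative. Clpp, a matrix protease, was at 59.4 ± 10.9 and 35.7 ± 26.0 FPKM (scaled -0.64), and Trap1, the mitochondrial HSP90, at 30.5 ± 6.53 and 19.6 ± 16.3 (scaled -0.62). Small heat shock proteins had a median of -0.38 over 4 tested members, with Hspb8 at 58.9 ± 10.6 and 39.2 ± 32.2 FPKM (scaled -0.57). Of the other HSP70 genes, Hspa9 of the mitochondrial matrix was at 18.1 ± 4.86 and 9.99 ± 4.11 FPKM (scaled -0.40). Hspa5, the HSP70 of the endoplasmic reticulum, gave 19.5, 6.84 and 9.80 FPKM in the 3 controls, and the treated livers gave 12.7, 36.9 and 31.3 FPKM, with overlap. Its log2 fold change was 1.09 (limma adjusted p = 0.959), as deposited and not scaled. Chaperones of the endoplasmic reticulum had a positive scaled log2 fold change in 14 of 15 tested members, with a median of 0.46. Of the 15, Hyou1, an exchange factor of that compartment, was the only member whose treated livers lay above all controls, on both scales. This share was near the 7.63% of all tested genes after scaling, while 3.01% were separated upward as deposited. As deposited, Hyou1 gave 0.78, 1.04 and 1.13 FPKM in controls against 2.48, 9.19 and 1.18 in treated livers (log2 fold change 1.11, limma adjusted p = 0.429). The control mean of Hyou1 was under the filter of 1 FPKM, so it passed only through its treated livers and these values are no support. The most abundant, Calr and P4hb, were at 204 ± 50.2 and 158 ± 100.1 FPKM (scaled -0.19), and 168 ± 57.6 and 159 ± 76.8 (scaled 0.33).

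**Figure D4:**
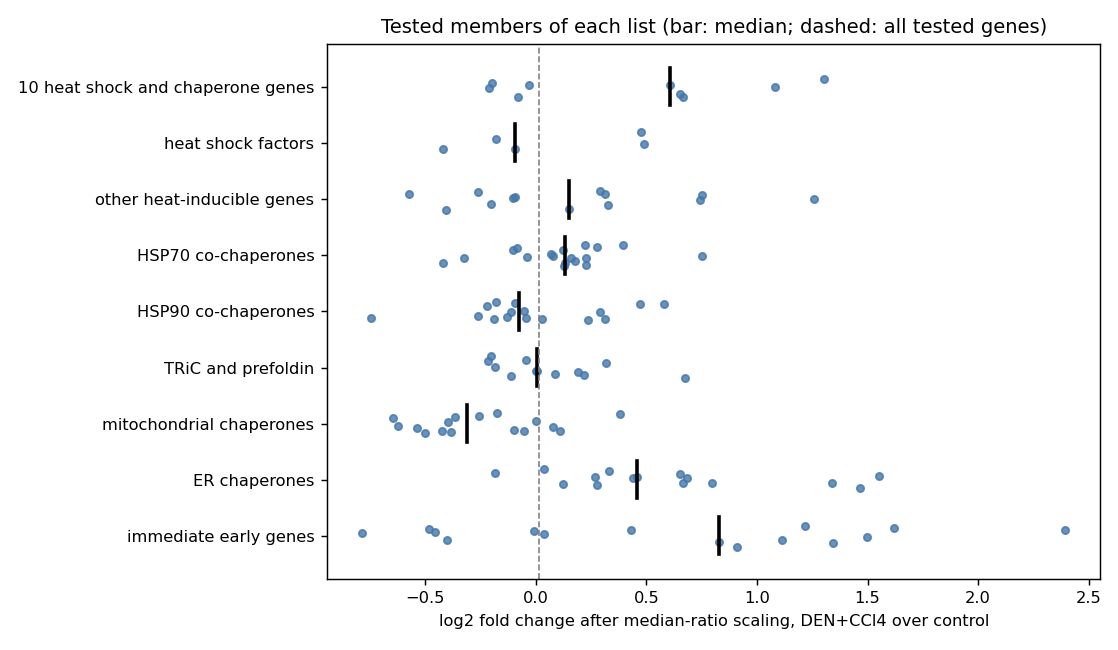
Log2 fold change after median-ratio scaling (x axis, DEN+CCl4 over control) of every tested gene in 9 groups of genes, the small lists of other HSP70 and small heat shock proteins left out; points are genes, black bars list medians and the dashed line the median of all tested genes (0.01). The medians plotted run from -0.31 for mitochondrial chaperones to 0.83 for immediate early genes, with 0.61 for the 9 tested members of the heat shock group. Some genes belong to several lists.

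Values of other cell types and of acute-response genes are given beside the inducible members, and their part in the result was not tested. Immediate early genes, which answer acute stimuli, had 1 of 15 tested members called, beside 1.48% of all tested genes. This was Ier3, at 0.38, 0.73 and 0.79 FPKM in controls and 1.64, 12.3 and 7.63 in treated livers (log2 fold change 2.05, limma adjusted p = 0.010, and 0.453 scaled). Ier3 was under 1 FPKM in every control and entered the test only through its treated livers, so that call is no support. The list's summed scaled level overlapped between groups (168 to 483 in controls, 279 to 355 in treated livers), and its most abundant genes were Zfp36 (96.8 ± 66.4 and 71.2 ± 54.4 FPKM, scaled -0.40) and Jund (65.9 ± 33.5 and 40.4 ± 27.7, scaled -0.48). In 5 of its 20 genes the scaled treated values lay above all controls, beside 7.68% of all genes above 0. Markers of stellate cells and myofibroblasts summed to 9.08 to 12.99 scaled FPKM in controls and 19.5, 31.7 and 53.6 in DEN+CCl4 replicates 1, 2 and 3. Scaled, 9 of 11 markers were above all controls (7.68% of all genes above 0 were), and none was at 0 in all libraries. As deposited, 6 of the 11 were above all controls (3.83% of genes above 0) and 1 below (5.35% of tested genes). Scaled lymphocyte markers summed to 9.35 to 10.3 and 19.9 to 28.5, with 4 of 10 above all controls, beside the same 7.68%. As deposited, 3 of the 10 were above, beside 3.83%. Of 3 tested neutrophil markers, 1 (S100a8) was called higher as deposited, where 0.833% of all tested genes were. After scaling 0 of all tested genes were called. Scaled neutrophil markers summed to 2.26 to 6.94 and 6.34 to 66.1, and cholangiocyte markers to 7.35 to 14.1 and 11.5 to 71.3, both with overlap. Endothelial and macrophage sums overlapped as well (11.4 to 22.2 and 19.6 to 34.0 for endothelial, 61.5 to 179 and 63.5 to 167 for macrophage markers), as did erythroid sums (204 to 548 and 350 to 1931). Hepatocyte markers were high in every library, as the liver label says, with sums of 28583 to 41852 and 26413 to 50191. Gene by gene, their median scaled log2 fold change was -0.47, with 6 of 12 positive. Scaled, 1 of the 12 lay below all controls and 0 above, beside 6.52% and 7.63% of all tested genes.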

How the data were processed

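Poly(A) RNA of 6 mouse livers was sequenced, and the authors deposited 1 table of FPKM with 2 decimals and 1 column per library, per the file headers. HISAT, StringTie and GRCm38 are named in the submitters' processing notes; for versions, annotation, strand and read length the labels hold no entry. FPKM is relative to the library total, so a library filled by a few genes shows lower values elsewhere, and without counts the depth is unknown.

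Coordinates came from GENCODE M21 (GRCm38; 25051 of 25102 identifiers matched) and promoters from RefSeq (GRCm38.p6). The filter was a mean of 1 FPKM, and genes above it were tested on log2(FPKM + 1) with limma 3.58.1 in R 4.3.3 (trend, two-sided, no covariates). The fit was also run on simulated data with independent noise and no shift of a whole library. That check does not cover a library such as DEN+CCl4 replicate 3. Ratios used a pseudocount of 0.01 FPKM and Python 3.11.15. Nuclear copies of mitochondrial genes share at least 50% of their 31-base words with them. Libraries were grouped by their titles. Alternatives were other pseudocounts, filters and scalings, no trend, the replicate block, and each library left out. The members and lists were chosen with earlier results of these data known. Of each list, called members (up to 4) are named and, with fewer than 2, the 2 highest in mean, of which 1 is not reported here; the 5 genes most like Hspa1a plus Hspa1b were taken by Pearson's r, without predicted genes. Serpinh1, Bag3, Cryab, Hyou1 and the pseudogenes were chosen after their values were seen.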

Additional observations from a re-analysis of the deposited data

How the results depend on the processing

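With the scale, pseudocount and spread estimate varied 1 at a time, 0 of the 9 tested chaperone genes passed limma's test, nor did any of 10 with no filter or of 5 with a filter at 5 FPKM, which leaves Hspa1b, Hsp90aa1, Dnajb1 and Hsph1 untested. With DEN+CCl4 replicate 1 left out after scaling 2 were under the threshold: Hsp90aa1 (1.34, limma adjusted p = 0.0436) and Hspa1b (1.43, limma adjusted p = 0.00987), the latter no support since it entered only through its treated livers. That fit called 294 genes higher and 362 lower. Over all genes, the 71 higher and 55 lower calls became 6 and 3 with a pseudocount of 0.1 and 14 and 53 with a filter at 5 FPKM. They became 0 and 0 with median-ratio scaling, no filter, quantile normalization, no trend, or mitochondrial genes left out (at an unadjusted p under 0.05: 468 and 446, 540 and 568, 413 and 416, 131 and 365, 389 and 212). The causes were not tested. Leaving out 1 library gave 0 to 109 higher and 0 to 270 lower as deposited (0 and 0 without DEN+CCl4 replicate 3, with 522 and 139 unadjusted; 109 and 270 without replicate 1). Scaled it gave 0 to 294 and 0 to 362, above 0 without DEN+CCl4 replicate 1 alone. Deviations of same-numbered libraries correlated at 0.03, 0.49 and -0.07, and those of differently numbered ones at -0.44 to 0.26. With 3 libraries per group these values cannot decide whether replicate numbers pair the libraries. The replicate block gave 62 higher and 32 lower, 0 and 0 with scaling as well (489 and 546 unadjusted), and 0 chaperone genes. Paired, the ratio differences (2.01, 2.24, -0.71 and 0.18) are the same by construction, with exact sign-flip permutation p of 0.25 for the first 3, the smallest possible, and 1.0 for Hspd1 to Hspe1.

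Hspa1b, Hsp90aa1 and Hsph1 kept a positive sign in every alternative run that tested them, with Hsph1 at 0.016 as deposited without DEN+CCl4 replicate 2. Hspa1b and Hsph1 passed the filter only through their treated livers, so their steady sign is no support. With 1 library left out as deposited, signs turned for Hspa8 (range -0.13 to 0.63, -0.025 without control and -0.13 without DEN+CCl4 replicate 2), for Hsp90ab1 and Hspb1 without DEN+CCl4 replicate 3 (0.091 and 0.22, from lows of -0.985 and -0.998) and for Dnajb1 without DEN+CCl4 replicate 2 (-0.069, up to 0.84 without replicate 3). Scaled, they turned without control replicate 1 for Hsp90ab1 (0.22), Hspb1 (0.27), Hspd1 (0.13) and Hspe1 (0.089), and without control replicate 3 for Hsp90ab1 (0.023) and Hspd1 (0.0039). They turned without DEN+CCl4 replicate 2 for Hsp90ab1 (0.0076), Hspd1 (0.27) and Hspe1 (0.023), and without DEN+CCl4 replicate 3 for Hspb1 (0.073). With quantile normalization Hsp90ab1, Hspd1 and Hspe1 turned to 0.22, 0.081 and 0.015. With 1 library left out, the Hspd1 to Hspe1 ratio difference ranged from -0.15 to 0.43, and the HSP70, HSP90 and Hspd1 to Hspa8 differences kept their sign (1.68 to 2.58, 1.75 to 2.53 and -0.92 to -0.41). With 1 FPKM added, HSP70 was 0.97 (exact permutation p = 0.2) and HSP90 1.61 (exact permutation p = 0.1). Read depth is unknown, so no counting error can be given for low values such as those of Hspa1a.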

Other observations

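Over the 6 libraries, the tested genes whose scaled levels followed the sum of Hspa1a and Hspa1b most closely were Selenon, Tpm1, Acta2, G6pdx and Dst, with Pearson's r of 0.998 to 0.999. They were picked for the highest r, so such values follow from the choice and are no support. Selenon, G6pdx and Dst had control means under the filter of 1 FPKM and passed it only through their treated livers. Acta2, the smooth muscle actin of myofibroblasts, had scaled values of 1.35, 1.25 and 0.858 in controls and 2.25, 7.92 and 10.9 in DEN+CCl4 replicates 1, 2 and 3. G6pdx, the first enzyme of the pentose phosphate pathway, had 0.806, 0.977 and 0.643 against 1.31, 4.41 and 4.72. These r values describe 6 points that share library and scale, and 257 of the tested genes (3.01%) reached an r of at least 0.95. Among the chaperone genes, r with that sum was 0.836 for Hspa8, 0.833 for Hsp90aa1, 0.813 for Dnajb1 and 0.778 for Hsph1. It was -0.22 for Hsp90ab1, -0.41 for Hspb1, -0.03 for Hspd1 and -0.46 for Hspe1.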
